A study of Homo sapiens with 12 samples.

Results

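The genes described here form a run of 8 neighbours on the long arm of human chromosome 12, from ENSG00000279148, next to BLTP3B, to SCYL2. Their RNA was measured by poly-A RNA-seq in HCT116, a colon carcinoma cell line. They were chosen by position and expression: 12 rows of the count table begin between 100020000 and 100341715 (hg38), and 8 of these, of 60648 genes in all, reach at least 10 counts in 3 or more libraries. BLTP3B (formerly UHRF1BP1L), ACTR6, DEPDC4 and SCYL2 are the 4 protein-coding members. The others are the pseudogene GOLGA2P5, a second transcribed pseudogene (ENSG00000257489), and ENSG00000279148 and ENSG00000280088, both of the annotation class TEC, which is kept for transcripts that still await experimental support. The stretch was picked because its RNA was lower in the knock-out, so the genotype difference of the members is given as a description, without a test.

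The libraries fall into 4 groups of 3. Wild-type HCT116 cells (WT) and MTHFD2 knock-out cells (KO) were each harvested at an initial time, right after the knock-out was made, and at a final time, after 2 months of culture. MTHFD2 is a folate-cycle enzyme, and the knock-out is 1 isolated CRISPR-Cas9 clone, so whatever else that clone carries cannot be told apart from the loss of MTHFD2. MTHFD2 RNA itself stood at 33.2% of WT in the initial KO libraries and 38.5% in the final ones, with no overlap between genotypes. RNA was read in bulk, so fewer cells expressing a gene and less RNA per cell cannot be told apart. Library totals lay between 38597809 and 40017561 counts. The epithelial markers EPCAM, KRT8, KRT18, KRT19 and CDH1 were abundant in every library (CDH1, the lowest, had at least 107 CPM, counts scaled to library size), while VIL1, also an intestinal epithelial marker, had 1 to 12 counts. The 6 epithelial markers summed to 2610 to 3220 CPM in initial WT against 2450 to 2690 in initial KO libraries, and to 3050 to 3190 against 2200 to 2570 CPM at the final harvest, without overlap there. Of the fibroblast markers, COL1A1 had a median of 56.2 CPM and COL1A2 0 to 1 counts. The summed fibroblast list was 56.8 to 69.9 CPM in initial WT against 37.5 to 48.2 CPM in initial KO libraries, and 60.2 to 78.8 against 43.4 to 59.3 CPM at the final harvest. The part of either list in the results below was not tested. Leukocyte and endothelial lists summed to at most 2.22 CPM in any library, with PTPRC and CDH5 at 0 to 2 counts and CD3E at 0.

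The members have unrelated jobs. ACTR6 is an actin-related protein of the SRCAP complex, which places the histone variant H2A.Z into nucleosomes near gene starts. SCYL2 is a pseudokinase of the SCY1-like family that binds clathrin and its adaptors on coated vesicles. BLTP3B belongs to the bridge-like lipid transfer proteins, long grooved proteins through which lipids pass between membranes, and acts in endosomal traffic. DEPDC4 carries a DEP domain, a fold found in signalling proteins that associate with membranes, and GOLGA2P5 is a copy of GOLGA2, the gene for the Golgi matrix protein GM130.

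The start regions of the 4 protein-coding members are shown because these genes differ together while they start from separate promoters, apart from DEPDC4 and SCYL2, which point away from each other. The sequences are RefSeq's on GRCh38.p14, read in the direction of transcription. Capitals mark matches, on either strand, to the GC box (GGGCGG), the CCAAT box (CCAAT), the TATA box (TATAAA), the E-box (CACGTG), the cAMP response element (TGACGTCA), an ETS site (CCGGAAGT) or a YY1 site (AAGATGGCG); overlapping matches run together. For BLTP3B (chr12:100142875-100143124, minus strand) and ACTR6 (chr12:100200565-100200814, plus strand) the 250 bases before the RefSeq start are given. For DEPDC4 and SCYL2 the 97 bases between both RefSeq starts (chr12:100267080-100267176) are given, on the strand of SCYL2. The gene models used for counting begin earlier for ACTR6 (100199122) and SCYL2 (100267140). They therefore span all of the ACTR6 stretch and part of the DEPDC4-SCYL2 stretch.
BLTP3B: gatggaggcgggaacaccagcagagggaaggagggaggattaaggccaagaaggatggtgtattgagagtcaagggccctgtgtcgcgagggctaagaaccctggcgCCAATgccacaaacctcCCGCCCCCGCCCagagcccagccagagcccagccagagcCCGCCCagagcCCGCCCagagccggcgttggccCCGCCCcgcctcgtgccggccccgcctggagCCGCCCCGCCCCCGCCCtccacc
ACTR6: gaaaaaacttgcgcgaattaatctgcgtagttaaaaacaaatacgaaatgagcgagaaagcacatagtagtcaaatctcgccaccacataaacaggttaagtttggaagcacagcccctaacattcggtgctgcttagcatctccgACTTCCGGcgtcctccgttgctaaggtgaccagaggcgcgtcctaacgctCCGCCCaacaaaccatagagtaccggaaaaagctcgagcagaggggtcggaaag
DEPDC4-SCYL2: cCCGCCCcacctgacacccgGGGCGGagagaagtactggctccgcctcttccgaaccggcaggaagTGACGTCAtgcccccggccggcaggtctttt
The 3 stretches differ in composition. GC content was 71.2% in the BLTP3B stretch, 49.2% in the ACTR6 stretch and 68.0% between DEPDC4 and SCYL2, beside a median of 58.7% over 35116 promoter windows of 300 bases (250 before to 50 after a start). In such windows BLTP3B held 8 GC boxes and 1 CCAAT box, ACTR6 1 GC box and 1 ETS site, and the window of DEPDC4 3 and that of SCYL2 2 GC boxes. The DEPDC4 and SCYL2 windows overlap by 197 bases and contain the same single cAMP response element, which 1.85% of all windows hold. The YY1 site of BLTP3B (held by 1.75% of windows) lies after its start and so outside the printed stretch. GC boxes were present in 45.0% of all windows, CCAAT boxes in 34.6%, TATA boxes in 11.5%, E-boxes in 7.26% and ETS sites in 4.14%. No motif of the 7 was found in all 4 windows other than the GC box.

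In the KO, RNA of all 4 protein-coding members stood near 50% of WT at both harvests. BLTP3B was at 55.6% and 50.4% of WT (initial and final), ACTR6 at 49.3% and 47.2%, DEPDC4 at 45.9% and 54.4%, and SCYL2 at 44.5% and 47.0%. Every KO library lay below every WT library of the same harvest for 8 of 8 members, beside 18.4% of the 18289 genes tested initially and 17.2% finally. The members were chosen on this contrast, so nothing is read from that count.

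SCYL2 (ENSG00000136021.19, chromosome 12, 100267140 to 100341715, plus strand) had 56.5, 49.7 and 52.9 CPM in the initial WT libraries and 47.1, 56.7 and 60.5 CPM in the final ones. The KO libraries held 22.4, 23.5 and 24.9 CPM initially and 28.2, 24.5 and 24.5 CPM finally. The highest KO library therefore stayed well under the lowest WT library. The fitted log2 fold change of KO against WT was -1.17 (SE 0.1) initially and -1.09 (SE 0.1) finally. A processed copy of the gene elsewhere in the genome, SCYL2P1 on chromosome 2, held 2 to 7 counts per library, so few reads were assigned to it.

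ACTR6 (ENSG00000075089.10, 100199122 to 100241865, plus strand) had 34.6, 30.2 and 33.1 CPM in initial and 31.9, 35.8 and 37.6 CPM in final WT libraries. KO libraries held 14.1, 15.0 and 19.2 CPM and then 18.1, 15.7 and 15.9 CPM. One initial KO library (replicate 3) was above the other 2, yet still clear of the WT values. Its log2 difference was -1.02 (SE 0.114) and -1.08 (SE 0.114). Per length, ACTR6 had the highest RNA level of the run, 8.56 ± 0.585 RPKM (CPM per kilobase of gene model; SD, n = 3) in initial WT against 4.22 ± 0.708 in initial KO.

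BLTP3B (ENSG00000111647.13, 100028455 to 100142874, minus strand) had 32.0, 29.5 and 33.6 CPM in initial and 33.9, 37.4 and 39.7 CPM in final WT libraries. KO libraries held 17.6, 18.3 and 16.9 CPM and then 21.0, 16.8 and 18.3 CPM. Its initial difference, -0.85 (SE 0.0972), was the smallest of the 8 members, and its final one was -0.99 (SE 0.0971). Scaled by length, BLTP3B amounted to 63.7% to 71.4% of SCYL2 in initial WT and to 76.5% to 88.3% in initial KO libraries. At the final harvest the corresponding ranges were 73.9% to 80.8% and 76.8% to 83.8%. Both genes were picked on the genotype contrast, so nothing is read from whether these ranges overlap.

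DEPDC4 (ENSG00000166153.17, 100203669 to 100267079, minus strand) was weakly expressed, with 3.05, 2.3 and 2.9 CPM in initial and 2.2, 2.55 and 2.9 CPM in final WT libraries. KO libraries held 1.21, 1.35 and 1.22 CPM and then 1.28, 1.12 and 1.76 CPM, and the last of these was the KO library nearest to WT. The log2 differences were -1.12 (SE 0.187) and -0.88 (SE 0.187). DEPDC4 lies on the opposite strand to ACTR6 and shares 113 exonic bases with it. The sources used here do not say whether reads were counted by strand, so reads of the pair could be exchanged. DEPDC4 had 44 to 125 counts per library and ACTR6 561 to 1454. The part of the DEPDC4 counts that could come from ACTR6 was not estimated, and it may not be small. The ratio of DEPDC4 to SCYL2, with which it shares the divergent start, averaged 8.23%, 7.4%, 8.53% and 8.64% per length in initial WT, final WT, initial KO and final KO.

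GOLGA2P5 (ENSG00000238105.7, 100156357 to 100173659, minus strand) spread widely among WT libraries, with 65.5, 42.9 and 55.3 CPM initially and 49.3, 41.2 and 38.1 CPM finally. KO libraries held 22.6, 17.0 and 18.2 CPM and then 19.4, 25.6 and 18.0 CPM. KO therefore amounted to 35.4% of WT initially and 48.9% finally, with log2 differences of -1.50 (SE 0.163) and -1.03 (SE 0.162). Reads can be split between such a copy and its parent. GOLGA2, the parent gene on chromosome 9, stood at 79.4% and 97.2% of WT. The second pseudogene, ENSG00000257489 (100173196 to 100199783, minus strand), shares 464 exonic bases with GOLGA2P5 on the same strand, so their counts are not independent. It had 1.48 to 2.1 CPM in WT libraries of the initial harvest and 0.766 to 0.908 CPM in the KO, or 46.3% of WT, and 50.3% at the final harvest.

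**Figure D1:**
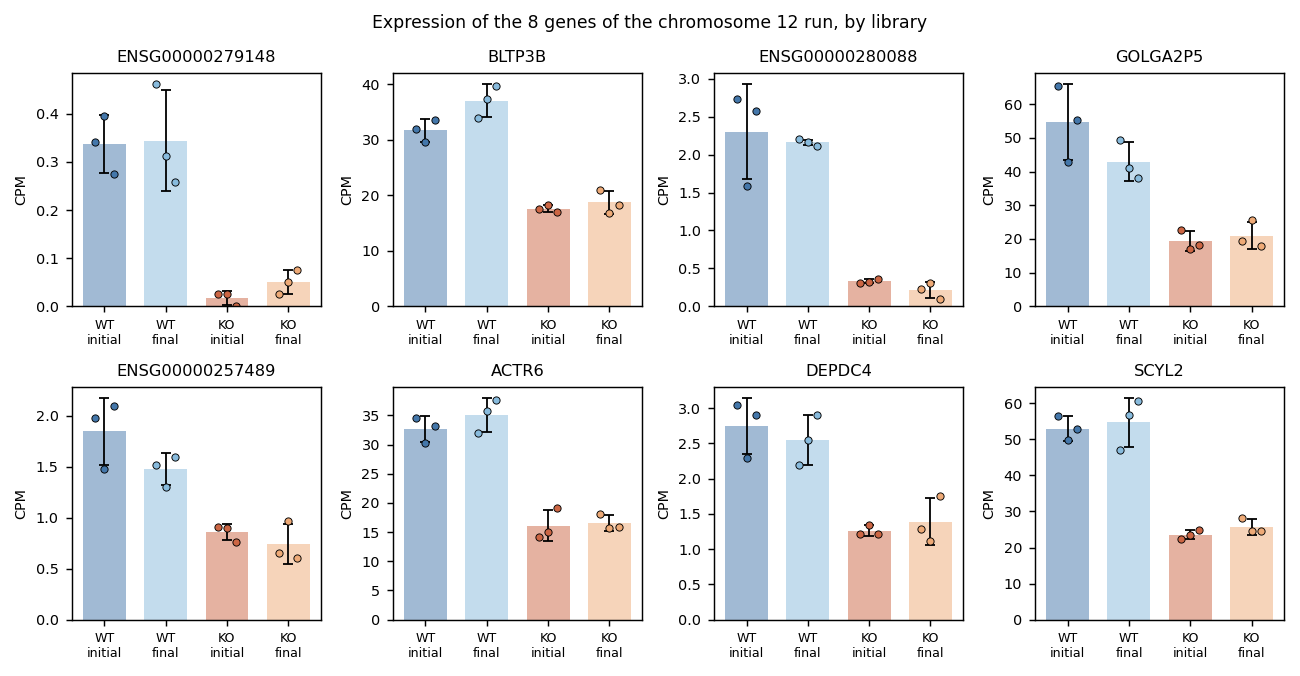
CPM of the 8 genes of the run in each of 12 libraries; points are libraries, bars and whiskers are the mean ± SD of 3 libraries of WT (blue) and KO (orange), initial and final. In all 8 panels the KO points lie below the WT points of the same harvest, and the vertical axes differ between panels.

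The pair of TEC transcripts at the low-coordinate end of the run had the lowest KO levels relative to WT. ENSG00000280088 (100032325 to 100034074, minus strand) had 2.73, 1.58 and 2.58 CPM in initial and 2.2, 2.16 and 2.12 CPM in final WT libraries. KO libraries held 0.303, 0.326 and 0.357 CPM and then 0.226, 0.306 and 0.1 CPM. These KO values rest on few reads, 12, 13 and 14 counts and then 9, 12 and 4. KO RNA was thus 14.3% and 9.76% of WT, with log2 differences of -2.79 (SE 0.272) and -3.34 (SE 0.298), while BLTP3B, whose span encloses it on the same strand, was at 55.6% and 50.4%. ENSG00000279148 (100026248 to 100027540, minus strand) was near the detection limit. It had 14, 16 and 11 counts in initial and 17, 12 and 10 in final WT libraries, against 1, 1 and 0 and then 1, 2 and 3 in KO. It met the count rule through its 6 WT libraries only. Summed over libraries, KO was at 4.99% of WT initially (95% exact interval 0.584% to 19.2%) and at 14.8% finally (5.1% to 35.1%); these intervals cover counting error only.

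Both TEC transcripts lie downstream of BLTP3B's usual end. In GENCODE 29, 3 of its 10 annotated transcripts run from its 5′ end, the lowest coordinate of these is 100037076, and ENSG00000280088 and ENSG00000279148 begin 3001 and 9535 bases beyond it. One further BLTP3B transcript reaches over ENSG00000280088, without shared exonic bases. Relative to BLTP3B per length, ENSG00000280088 amounted to 20.4% to 32.4% in initial and 20.3% to 24.6% in final WT libraries. In the KO the same ratio was 6.54% to 8.01% and 2.09% to 6.94%, so the genotypes did not overlap at either harvest. The KO ratios rest on 4 to 14 counts of ENSG00000280088 per library. This ratio comes from the contrast that chose the run and is given without a test. ACTR6 relative to SCYL2 averaged 121%, 126%, 133% and 126% in initial WT, final WT, initial KO and final KO. Initially the WT range of that ratio was 119% to 123% and the KO range 124% to 151%. The initial KO median was 125%, so the mean of 133% rests largely on the highest library. This ratio, too, comes from genes picked on the genotype contrast.

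**Figure D2:**
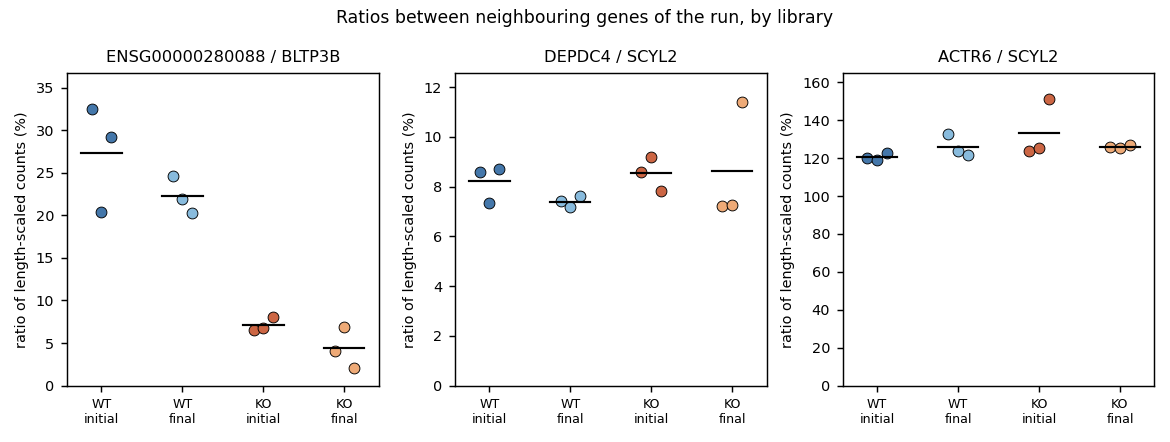
Ratios of length-scaled counts (%) for neighbouring members, by library (points) with the mean of 3 libraries (line). ENSG00000280088 relative to BLTP3B is at 20.3% or more in WT and at 8.01% or less in KO libraries, while DEPDC4 and ACTR6 relative to SCYL2 overlap between genotypes at the final harvest.

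Per library, the members' median deviation from the WT mean was -1.22 to -1.03 (log2) in the 6 KO libraries and -0.18 to 0.10 in the 6 WT libraries. For the 4 protein-coding members the KO values lay between -1.17 and -0.95, so all 6 KO libraries carried the difference. The summed RNA of these 4 genes was 112 to 126 CPM in initial WT, 115 to 141 CPM in final WT, 55.3 to 62.3 CPM in initial KO and 58.1 to 68.6 CPM in final KO. The median log2 fold change over the 8 members was -1.15 initially and -1.06 finally, beside 0.00 at both harvests over all genes tested. These 8 include ENSG00000279148, which met the count rule through its WT libraries only. Over the 4 protein-coding members alone the median was -1.07 initially and -1.04 finally. Of the other 1025 genes tested on chromosome 12, 25 (2.44%) were as low at both harvests as the protein-coding member with the smallest difference, and over all genes tested it was 2.41%.

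The edge of the step is placed more closely on one side than on the other, because the next expressed gene is nearer there. On the high-coordinate side the next gene that met the count rule was GAS2L3, an adaptor of actin and microtubules, which begins 232 kb beyond SCYL2 and stood at 100% and 101% of WT. The 3 genes between, the glutamate transporter SLC17A8 among them, had at most 2 counts in a library. On the low-coordinate side 1291 kb without an expressed gene separated the run from APAF1, the scaffold of the apoptosome. The 8 genes in that gap reached at most 12 counts in a library, the highest being ANKS1B, so these data do not place the left edge more closely. ANKS1B stood at 50.9% and 58.4% of WT on 1 to 12 counts per library, with overlap between genotypes at the final harvest. Nearest to the window's own borders, RPS4XP1 just below it had at most 6 and SLC17A8 just above it at most 2 counts. Inside the window the 4 rows under the count rule (UHRF1BP1L-DT, RN7SL176P, MIR1827 and Y_RNA) had at most 1 count.

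The 5 expressed genes on each side had a median log2 fold change of 0.04 initially and -0.04 finally. Because the window was drawn from the data, these too are a description. In the KO, APAF1 was at 73.2% and 80.3% of WT, with log2 values of -0.45 and -0.32. Beyond it, IKBIP had 0.45 and 0.14, SLC25A3 0.08 and -0.13, TMPO -0.17 and -0.06, and the weakly expressed SNORA53 -0.15 and -0.78. On the other side ANO4 had 0.07 and 0.27, UTP20 0.27 and 0.22, and ARL1 0.10 and -0.03. CHPT1, a choline phosphotransferase of phosphatidylcholine synthesis, had -0.29 initially and -1.41 finally. It rose over time in WT cells by 1.11 (SE 0.154, adjusted p = 0.000324 in edgeR's quasi-likelihood test) from 8.82 ± 1.5 to 19.0 ± 3.75 CPM (SD, n = 3).

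**Figure D3:**
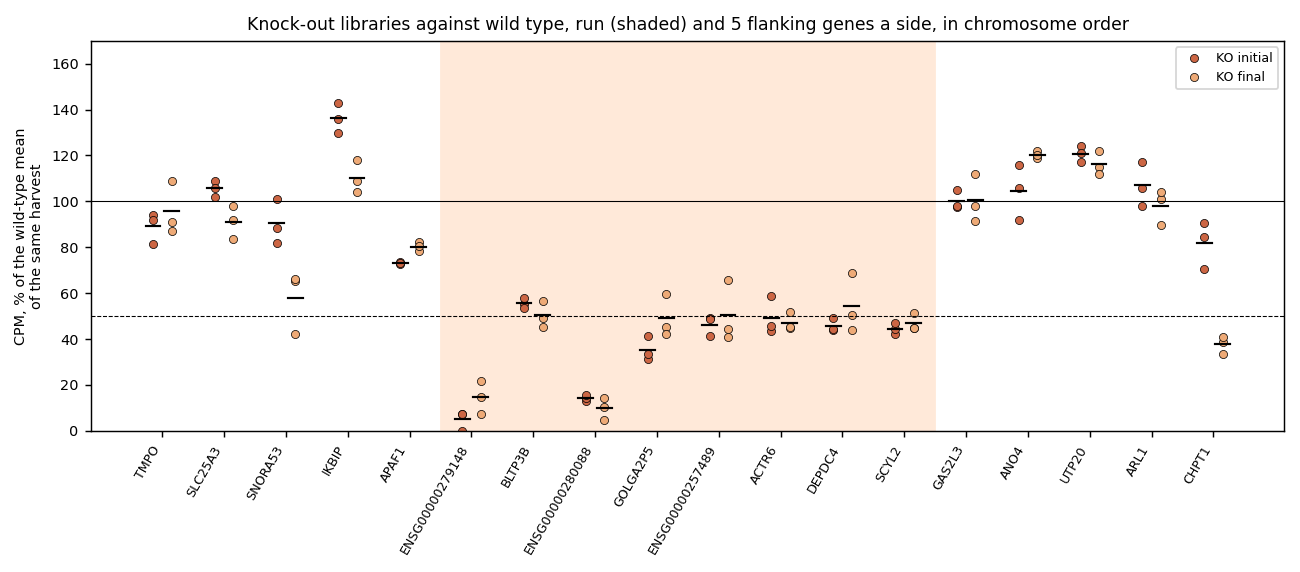
CPM of each KO library as a percentage of the WT mean of the same harvest, for the run (shaded) and 5 expressed genes on each side in chromosome order; lines are means of 3 libraries, and dashed and solid lines mark 50% and 100%. Protein-coding members lie between 42.2% and 69.0%, GAS2L3 between 91.3% and 112%, and APAF1 between 72.6% and 82.3%.

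**Figure D4:**
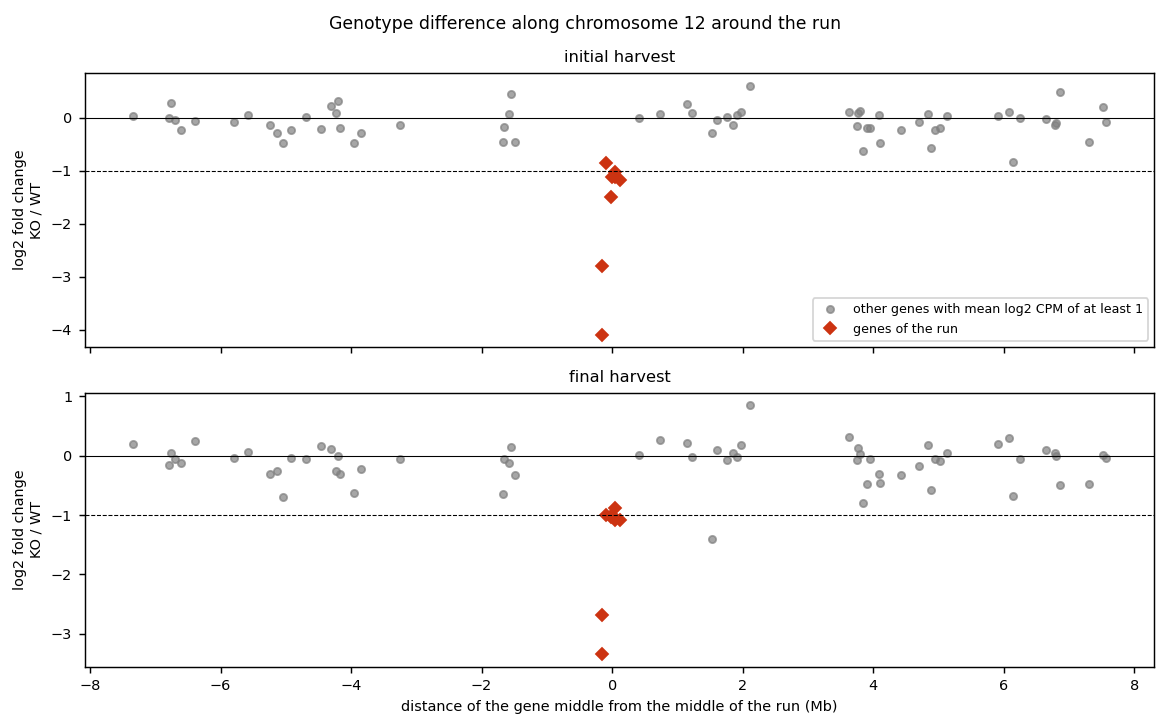
Log2 fold change of KO against WT at each harvest by distance (Mb) from the middle of the run; diamonds are the 8 members and grey points the 64 other genes within 8 Mb whose log2 CPM averaged at least 1. The members, which were not held to that level, sit at -0.85 or lower. The grey points lie at -0.83 or higher, apart from CHPT1 (-1.41) at the final harvest. Other genes under that level are not drawn, among them ENSG00000286056 on the low-coordinate side. This gene met the count rule and had -3.08 initially and -2.19 finally, at 0 to 25 counts per library.

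Time in culture was not part of the rule and was tested. The time contrasts use the same group means as the genotype differences on which the run was picked, so they are not fully free of that choice. In WT cells 0 of 8 members passed an adjusted p of 0.05 between harvests in edgeR's quasi-likelihood test, where 6.47% of all genes did. At an unadjusted p under 0.05 there were 2, BLTP3B and GOLGA2P5, in edgeR, a share close to the 20.0% of all genes. DESeq2 called 0 of the 7 for which it set an adjusted p (9.39% of all such genes), and 2 of 8 at an unadjusted p under 0.05 (19.0% of all genes). BLTP3B was 0.22 higher on the log2 scale at the final harvest (SE 0.0951, adjusted p = 0.194 by edgeR). GOLGA2P5 differed by -0.35 (SE 0.158, adjusted p = 0.228 by edgeR), or by -0.50 to -0.19 when 1 library was left out, and it passed in the fit without a filter on low counts. The other members had values from -0.33 (ENSG00000257489) to 0.10 (ACTR6), with edgeR's adjusted p from 0.373 to 0.983.

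In KO cells 0 of 8 members passed between harvests, where 1.48% of all genes did, and none did so at an unadjusted p under 0.05 in edgeR (14.9% of all genes) or DESeq2 (14.1%). DESeq2 called 0 of 7 after adjustment, against 4.06% of all genes. The 4 protein-coding members had log2 values of 0.08 (BLTP3B), 0.04 (ACTR6), 0.14 (DEPDC4) and 0.13 (SCYL2), each with an SE of 0.201 or less. ENSG00000280088 had -0.63 (SE 0.401), or -1.0 to -0.31 when 1 library was left out, and no fold is given for ENSG00000279148, which had 3 counts or fewer in every KO library. The difference between the genotype contrasts of both harvests, the interaction, passed in 0 of 8 members against 1.28% of all genes, with edgeR's adjusted p from 0.421 to 0.913. None reached an unadjusted p under 0.05 in edgeR, where 12.3% of all genes did, and 1 of 8 did in DESeq2, where 11.6% did. After adjustment DESeq2 called 0 of 7, against 2.87% of all genes. The interaction is built from the harvest differences on which the run was picked. A value that misses the threshold does not show that both steps were equal. ENSG00000279148 is 1 of the 8 members counted in KO cells and for the interaction, though its few KO counts left it little room to pass. GOLGA2P5 had the value nearest to the threshold, 0.47 (SE 0.227, adjusted p = 0.421 by edgeR), and SCYL2 and ACTR6 had 0.08 (SE 0.14) and -0.06 (SE 0.16).

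Genes that work with the members, or belong to their families, were read at other places of the genome. Of 79 such genes in 5 lists, 75 were tested. At the initial harvest 5 were higher and 8 lower in KO, beside 8.55% of all genes tested higher and 11.3% lower. At the final harvest 3 were higher and 9 lower, beside 8.38% higher and 10.2% lower. Leaving out 1 initial library moved the initial total of 13 to between 7 and 23, with 8 without WT replicate 1, 23 without WT replicate 2 and 7 without KO replicate 2.

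Around ACTR6, 1 of 14 genes of H2A.Z exchange passed initially and 0 finally (edgeR's adjusted p under 0.05). The 1 gene was DMAP1, a subunit of the SRCAP and TIP60 complexes, with 68.7 ± 6.53 CPM in WT and 54.2 ± 6.29 in KO (-0.34, adjusted p = 0.035 by edgeR). SRCAP, the ATPase of the complex, had -0.07 and 0.25, YEATS4 0.03 and 0.03, and H2AZ1, which encodes the exchanged histone, 0.03 and 0.06. The list's median was -0.03 and -0.05. Over all genes tested, 11.3% were lower initially and 10.2% finally. Among 11 tested actin-related genes 3 were higher initially (ACTR1B 0.23, ACTR3B 0.31 and ACTL8 1.72) and 1 finally (ACTL8 1.13). The shares of all genes that were higher were 8.55% and 8.38%. ACTL8 is a low-abundance gene here, at 0.256 ± 0.101 CPM in initial WT and 0.849 ± 0.289 CPM in initial KO libraries (SD, n = 3), and its final value no longer passed without WT replicate 2 (1.0) or KO replicate 3 (1.03).

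Around SCYL2, 2 of 28 genes of the SCYL family and clathrin coats were higher and 2 lower initially, and 2 higher and 5 lower finally. Over all genes tested, 8.55% were higher and 11.3% lower initially, and 8.38% and 10.2% finally. SCYL3, a relative of SCYL2, did not pass (-0.14 and -0.05), nor did the clathrin heavy chain CLTC (0.09 and -0.04). AP1S3, a small subunit of the AP-1 adaptor, fell by 0.49 and 0.62 (edgeR's adjusted p = 0.0143 and 0.00292), and its initial value did not pass without replicate 1 of WT (-0.38) or of KO (-0.40). AP1M2, the epithelial AP-1 medium subunit, fell by 0.85 initially (adjusted p = 1.4e-05 by edgeR) and by 0.30 finally (adjusted p = 0.0463). The final call was lost with RLE scaling, with the replicate number as a block (-0.30 each), in the fit of only the final groups (-0.29), and in 8 of 12 fits that left out 1 library (-0.20 without final KO replicate 2 and -0.28 without final WT replicate 3). BMP2K, a kinase related to the AP-2 kinase AAK1, rose by 0.35 and 0.43 (edgeR's adjusted p = 0.00676 and 0.00173), and did not pass initially without KO replicate 2 (0.30).

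Around BLTP3B, 2 of 9 bridge-like genes were lower initially, its paralogue BLTP3A (-0.41, adjusted p = 0.000517 by edgeR) and the autophagy protein gene ATG2B (-0.66, adjusted p = 0.00237), and 1 finally, BLTP2 (-0.35, adjusted p = 0.00463). None was called at both harvests. Over all genes tested, 11.3% were lower initially and 10.2% finally. BLTP3A had 93.7 ± 2.74 CPM in initial WT and 70.6 ± 1.47 in initial KO libraries, and 75.8 ± 2.46 against 73.1 ± 3.5 CPM finally (SD, n = 3). Around DEPDC4, 3 of 14 tested DEP domain genes were lower at each harvest and none was higher. The same shares of all genes stand beside these counts, and with 14 genes nothing is read from their direction. DEPTOR, an inhibitor of mTOR, fell by 0.85 and 0.62 and DEPDC1 by 0.46 and 0.36 (edgeR's adjusted p from 0.000815 to 0.0326). DEPDC1 did not pass finally without replicate 2 or 3 of either genotype (-0.35 to -0.30). No partner list had a median below -0.22 at either harvest, beside -1.07 and -1.04 for the 4 protein-coding members.

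**Figure D5:**
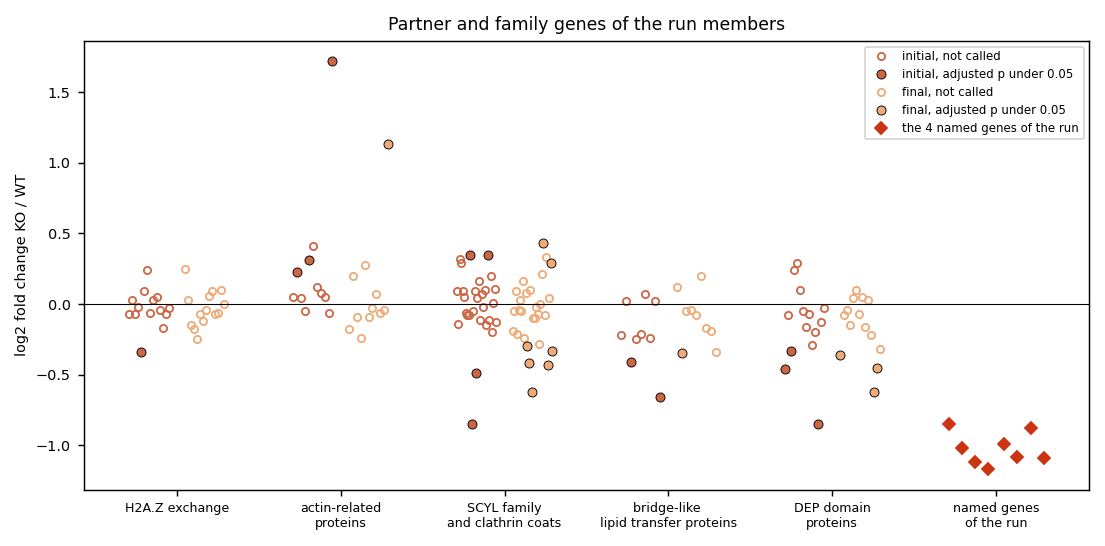
Log2 fold change of KO against WT for the tested genes of 5 partner lists at the initial (dark) and final (light) harvest, filled where edgeR's adjusted p was under 0.05, with the 4 protein-coding members as diamonds. The diamonds lie from -1.17 to -0.85, and every partner gene lies at -0.85 or above.

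Across the 12 libraries the 4 protein-coding members followed each other, with Pearson's r of log2 CPM from 0.923 (ACTR6 and DEPDC4) to 0.99 (ACTR6 and SCYL2). Of 12602 genes whose log2 CPM averaged at least 1, the ones most like their mean profile were PDLIM5 (r = 0.994), SARAF (0.991) and RNF144B (0.99), all on other chromosomes. These correlations are descriptions over libraries that share the split by genotype. PDLIM5 was at 49.5% and 44.2% of WT, SARAF at 39.4% and 38.9%, and RNF144B at 27.7% and 30.6%.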

How the data were processed

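The authors deposited 1 table of raw counts per gene for 12 poly-A libraries, laid out as featureCounts writes it, per the file headers. STAR, featureCounts, Subread and hg38 are named per the submitters' processing notes; the annotation release, strand setting and handling of multi-mapped reads are not given in the sources used here. From 60648 genes (5 broken lines of 1 gene left out), filterByExpr kept 18289. Counts were scaled by TMM and fitted in edgeR 4.0.16 (R 4.3.3, limma 3.58.1; quasi-likelihood, robust) with 4 group means over 12 libraries, and p-values were Benjamini-Hochberg adjusted over all tested genes. The fit was tested on simulated data. CPM use TMM-scaled totals; RPKM divide by the table's gene length. Alternatives were RLE factors, DESeq2 1.42.0, no filter, a replicate block, only the groups compared, 12 leave-one-out fits and 10 flanking genes a side.

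Members, gene lists and tests were chosen with earlier results of these data known. Named were all members, 5 flanking genes a side and the 3 genes most like the members. So were partner genes called in the same direction at both harvests (at most 4 a list). Other partner genes, GOLGA2, SCYL2P1, ENSG00000286056 and gap genes were named after their values were seen. The series calls the libraries of a group biological replicates without saying what separates them, so p-values measure the spread between libraries, which may be technical. Gene types and transcripts are from GENCODE 29, promoters from RefSeq (4 of 4 matched). The values of 1 partner gene are not reported here.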

Additional observations from a re-analysis of the deposited data

Results flagged for a closer look

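CHPT1, 1 of the flanking genes and not a member of the run, had a genotype difference that changed between harvests. Its interaction was -1.12 on the log2 scale (SE 0.222, adjusted p = 0.0181 in edgeR's quasi-likelihood test). It rose over culture in WT cells by 1.11 and had -0.01 in KO cells, where the libraries held 7.44, 6.22 and 7.99 CPM initially and 7.35, 7.8 and 6.35 CPM finally. Without 1 library the interaction lay between -1.26 and -1.02, and it no longer passed the threshold without initial WT replicate 3 (-1.08), final WT replicate 2 (-1.03) or initial KO replicate 3 (-1.04).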

How the results depend on the processing

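The members' median genotype difference was -1.15 to -1.14 (initial) and -1.07 to -1.05 (final) under the other scalings, tools and filters, and -1.24 to -1.09 and -1.13 to -1.03 when 1 library was left out. Without a filter on low counts 1 member, GOLGA2P5 (-0.35), passed for time in WT. With 10 flanking genes a side their initial median was -0.14. The initial partner count of 13 lay between 7 and 23 when 1 library was left out. Time differences of the members that changed sign when 1 library was left out ran, in WT, from -0.25 to 0.19 (ENSG00000279148), -0.30 to 0.06 (ENSG00000280088) and -0.03 to 0.14 (SCYL2), and in KO from -0.02 to 0.15 (BLTP3B), -0.05 to 0.24 (GOLGA2P5), -0.05 to 0.18 (ACTR6) and -0.08 to 0.26 (DEPDC4). The flanking gene CHPT1 ran from -0.11 to 0.07 in KO. Interactions did so for ENSG00000257489 (-0.13 to 0.25), ACTR6 (-0.16 to 0.08) and SCYL2 (-0.01 to 0.15). AP1M2 at the final harvest no longer passed with RLE factors (-0.30), the replicate block (-0.30) or only the groups compared (-0.29), nor in 8 of 12 fits without 1 library (-0.41 to -0.20 over all 12), and ACTL8 and DEPDC1 (final) and AP1S3 and BMP2K (initial) did not without certain single libraries, with ranges of 1.0 to 1.26, -0.47 to -0.30, -0.59 to -0.38 and 0.30 to 0.39. The causes were not tested. ENSG00000279148, with 0 to 3 counts in KO libraries, is limited by depth.

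Correlations of deviations between same-numbered libraries ran from -0.442 to 0.356, so no pairing by replicate number held in every comparison. For replicates 1, 2 and 3 they were 0.356, 0.272 and -0.0169 between initial WT and initial KO. Between final WT and final KO they were -0.442, -0.351 and 0.151. Between harvests they were 0.226, 0.197 and -0.00583 in WT, and -0.415, -0.344 and 0.0444 in KO. Differently numbered libraries ranged more widely. The lowest value was -0.532 (final WT replicate 3 with final KO replicate 2). The highest was 0.621 (initial KO replicate 1 with final KO replicate 2). A block by replicate number does not cover such shared deviations, and their source was not tested. With the replicate block the members' median was -1.14 and -1.05, and 0 members passed for time in WT, time in KO or the interaction.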
